A study of Mus musculus with 2 samples.

Results

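Vpreb3-positive B-lineage cells were examined in single-cell RNA libraries of mouse hindlimb muscle. The members were chosen by their own counts of 11 genes. Barcodes first had to show 500 or more genes and no more than 10% mitochondrial UMIs (unique molecular identifiers, each standing for 1 captured RNA molecule). A member also needed at least 2 UMIs of Vpreb3 and at least 2 UMIs of Cd79a and Cd79b together. At most 2 UMIs of Igll1, Vpreb1 and Dntt together and at most 1 UMI of Ms4a1 were allowed, and no UMI of Rgs13, Cd3d, Cd3e or Cd3g. These limits found 92 cells in the day 28 library and 122 in the day 0 library, 214 of 5302 cells that passed the gene and mitochondrial filters. The cells had been sorted as YFP+CD11b- from hindlimb muscle of Fsp1-Cre: R26R-EYFP mice, in both libraries. In this strain Cre is under the Fsp1 promoter (Fsp1 is another name of S100a4), and YFP stays on in any cell that has once made Cre and in all cells that descend from it. The day 28 library came from mice taken 28 days after ischemic surgery on the hindlimb, and the day 0 library from mice without surgery. Each group was 1 library, the number and age of the animals were not given in the sources used here, and no difference has a replicate check. All intervals are at 95% and cover counting error only.

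B cells are made in the bone marrow through ordered steps. Pro-B cells rearrange the immunoglobulin heavy-chain gene with the Rag1 and Rag2 recombinase and add bases with Dntt. Large pre-B cells pair the new heavy chain with the surrogate light chain, made of the products of Igll1 and Vpreb1, signal through this pre-B receptor and divide in response to interleukin 7. They then stop dividing, lose the surrogate light chain, become small pre-B cells and rearrange a light-chain gene, after which immature B cells gain Ms4a1 (CD20), MHC class II and other genes of mature B cells. Vpreb3 encodes a further protein of the surrogate light-chain family, which associates with immunoglobulin chains during their assembly and is made across the pre-B and immature stages. The immunoglobulin constant-region genes Ighm and Igkc were not among the 27998 rows of the gene table, nor was the YFP reporter, so neither was read here.

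The rule set Vpreb3 as present and Igll1 and Vpreb1 as nearly absent, and the promoters of these 3 related genes are shown with that of Fcrla, a marker of the members, so that their upstream sequence can be read beside the values. Each line gives the 250 bases before the start of the gene from RefSeq (GRCm38.p6), 5′ to 3′ on the strand of the gene. Capitals mark the octamer (ATGCAAAT or its reverse complement ATTTGCAT), a motif bound by POU-domain factors with the coactivator Pou2af1, and E-boxes (CANNTG, the same on both strands), which Tcf3 and other basic helix-loop-helix factors can bind.
Vpreb3 chr10:75948050-75948299 (+): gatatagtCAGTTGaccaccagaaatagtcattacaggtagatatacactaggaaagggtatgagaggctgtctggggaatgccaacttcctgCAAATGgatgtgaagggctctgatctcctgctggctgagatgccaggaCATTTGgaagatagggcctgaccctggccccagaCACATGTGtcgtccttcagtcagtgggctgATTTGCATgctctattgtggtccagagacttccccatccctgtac
Fcrla chr1:170927584-170927833 (-): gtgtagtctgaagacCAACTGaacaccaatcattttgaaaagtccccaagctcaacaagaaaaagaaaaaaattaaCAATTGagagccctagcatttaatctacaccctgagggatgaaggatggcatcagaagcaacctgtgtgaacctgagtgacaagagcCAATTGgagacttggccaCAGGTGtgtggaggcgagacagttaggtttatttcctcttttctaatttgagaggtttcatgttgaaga
Igll1 chr16:16863986-16864235 (-): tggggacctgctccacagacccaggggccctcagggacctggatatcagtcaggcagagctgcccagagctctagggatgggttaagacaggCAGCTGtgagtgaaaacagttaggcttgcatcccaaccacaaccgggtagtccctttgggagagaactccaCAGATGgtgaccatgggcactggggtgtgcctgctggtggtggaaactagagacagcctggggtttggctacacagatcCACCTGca
Vpreb1 chr16:16869256-16869505 (-): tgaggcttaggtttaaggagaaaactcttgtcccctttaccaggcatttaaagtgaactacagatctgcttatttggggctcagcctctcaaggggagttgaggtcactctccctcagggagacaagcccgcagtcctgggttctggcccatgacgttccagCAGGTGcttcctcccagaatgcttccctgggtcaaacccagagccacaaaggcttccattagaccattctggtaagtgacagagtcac
The Vpreb3 window held 1 octamer, at positions -45 to -38 counted from the gene start, and 5 E-boxes, of which those starting at -75 and -73 overlap. Fcrla had 4 E-boxes, Igll1 had 3 and Vpreb1 had 1, and none of these 3 windows held the octamer. Over 32851 mouse promoter windows of the same length, 526 (1.6%) held an octamer, 21753 (66.2%) at least 1 E-box and 3.84% 4 or more. The table held promoters for 6 of the 8 marker, surrogate light-chain and Dntt genes. A match describes the letters and shows no binding.

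The members' own genes were read cell by cell. Vpreb3 had between 2 and 37 UMIs per cell at day 28, with a median of 15.5, against 2 to 38 with a median of 12.5 at day 0. Cd79a and Cd79b, the signalling chains of the B cell receptor, together had 2 to 35 UMIs per cell at day 28 (median 13) and 4 to 37 at day 0 (median 14). These genes chose the cells, so their levels are a description. Igll1, Vpreb1 and Dntt were all at 0 in 61 of 92 members at day 28 and 84 of 122 at day 0, and Ms4a1 was at 0 in 84 at day 28 and 98 at day 0. Myl4, which encodes a myosin light chain best known from the atrium and embryonic muscle, had 0 to 24 UMIs per cell at day 28 (median 6, with 9 cells at 0) and 0 to 16 at day 0 (median 3, with 18 cells at 0). It was found in 90.2% of members at day 28 and 85.2% at day 0. In T cells, a type that should lack it, it was found in 5.69% of 123 cells at day 28 and 5.46% of 1099 at day 0. The median depth was 6361 UMIs in members and 6437 in T cells at day 28, and 4414 in members and 3949 in T cells at day 0. Fcrla, an Fc receptor-like protein that stays inside B cells, was found in 83.7% of members and 9.76% of T cells at day 28, and in 84.4% of members and 12.6% of T cells at day 0. It was also found in 73.3% of 30 Ms4a1-positive B cells at day 28 and 62.3% of 183 at day 0, so its presence is not particular to members. Cecr2, a chromatin-remodelling factor, had a median of 1 UMI per member in both libraries and was at 0 in 29 day 28 and 49 day 0 cells. Akap12, a scaffold for protein kinase A, was at 0 in 44 cells at day 28 and 64 at day 0.

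The members with exactly 2 Vpreb3 UMIs, 9 cells at day 28 and 10 at day 0, had 33.8 CPM (UMIs of a gene scaled to a summed total of 1000000) of Myl4 at day 28 and 75.3 CPM at day 0, and cells just outside with 1 Vpreb3 UMI had 21.7 CPM in 35 day 28 cells and 5.67 CPM in 30 day 0 cells. Both sides of this limit were below all members, which had 767.5 CPM at day 28 and 820.4 CPM at day 0. At the limit on the surrogate light chain, members with 1 or 2 UMIs of Igll1, Vpreb1 and Dntt had 849 CPM of Myl4 at day 28 (31 cells) and 966 CPM at day 0 (38 cells). Cells just outside with 3 or 4 such UMIs had 1228 CPM at day 28 (13 cells) and 1451 CPM at day 0 (7 cells). At the limit on Ms4a1, members with 1 UMI numbered 8 at day 28 and 24 at day 0, and cells with 2 UMIs numbered 1 at day 28 and 20 at day 0. Cd74, a gene of MHC class II presentation, had 13745 CPM in those 24 day 0 members and 13430 CPM in the 20 cells outside. The 10 day 0 members with exactly 2 Vpreb3 UMIs had 15201 CPM, against 4231 CPM over all day 0 members. At day 28 the 8 members had 3202 CPM and all members 1036 CPM. The 9 day 28 members with exactly 2 Vpreb3 UMIs had 2802 CPM. Members at the Vpreb3 and Ms4a1 limits thus had more Cd74 RNA than all members together. Those at the surrogate light-chain limit did not, with 944 CPM at day 28 and 2305 CPM at day 0. Gene counts that moved with at least 3 Vpreb3 UMIs or with no Igll1, Vpreb1 or Dntt UMI are in the closing section. The Ms4a1 limit was not varied, and the part of members at any limit in the values without mixed cells was not tested.

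Some members carried large amounts of RNA of another blood lineage. A cell was set apart as mixed when it had at least 100 UMIs of Jchain (the joining chain of secreted immunoglobulin, typical of plasma cells). At least 20 UMIs of the neutrophil granule genes Elane, Mpo, Prtn3 and Ctsg, of Lyz2 or of globins, or at least 5 of Siglech and Cox6a2 (plasmacytoid dendritic cells) or of the T and NK genes Cd8b1, Cd8a, Cd4, Nkg7 and Bcl11b, also set a cell apart. This applied to 16 of 92 members at day 28 and 10 of 122 at day 0, which held 36.1% of member UMIs at day 28 and 16.4% at day 0. Of the 9 day 28 members with exactly 2 Vpreb3 UMIs all 9 were mixed, and of the 77 with 5 or more 5 were, while at day 0 3 of the 10 with exactly 2 and 5 of the 106 with 5 or more were. Mixed members had a median of 9744.5 UMIs at day 28 and 8705.5 at day 0, against 5882.5 at day 28 and 4283 at day 0 in the others. The 7 Jchain-rich cells of day 28 held 98.8% of the members' Jchain UMIs, with up to 1753 in a cell, and the 3 of day 0 held 99.8%, with up to 1460. The 6 cells rich in granule genes at day 28 held 91.5% of those UMIs, and the 2 at day 0 held 94.4%. Whether a mixed member was 1 cell or 2 cells in a droplet was not tested. The Scrublet automatic threshold marked 0.226% of barcodes at day 28 and 0.150% at day 0, too few to have worked, and 2 of its 56 top-scoring barcodes at day 28 and 3 of 57 at day 0 were members.

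**Figure D1:**
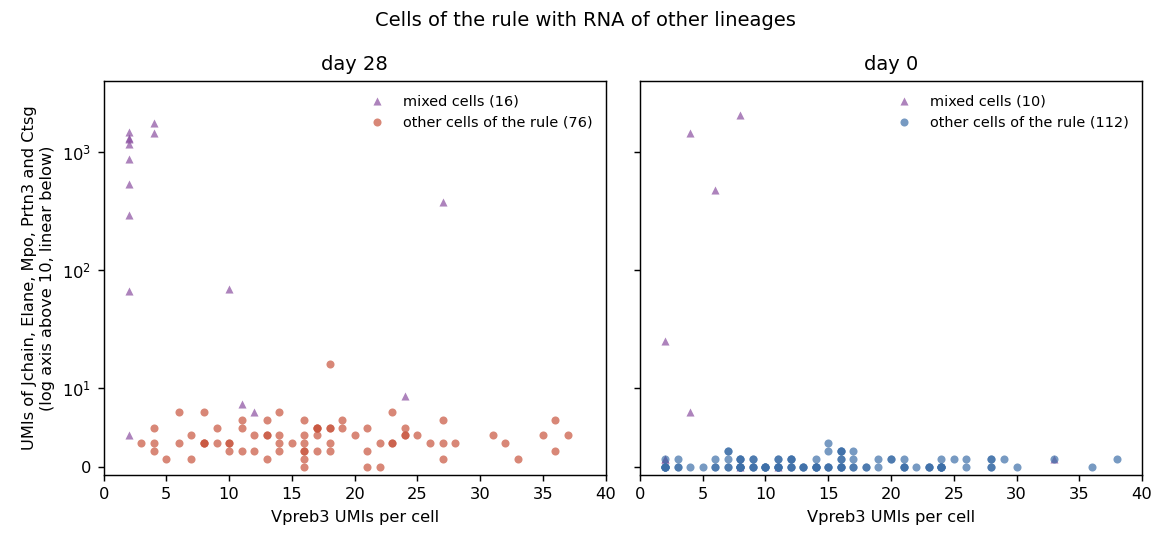
Each point is a cell found by the rule, with its Vpreb3 UMIs on the x axis and its UMIs of Jchain, Elane, Mpo, Prtn3 and Ctsg on the y axis (logarithmic above 10, linear below), day 28 left and day 0 right. Triangles are the 16 and 10 mixed cells, most of the day 28 ones at 2 Vpreb3 UMIs, and circles are the 76 and 112 others.

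The 76 day 28 and 112 day 0 members below these limits, called unmixed here, had RNA of the B lineage, and some of them had RNA of early B cell genes (Il7r, Rag1 or Rag2). Ebf1, a transcription factor that sets the B lineage, was found in 76 of 76 cells at day 28 and 112 of 112 at day 0, against 16.3% of T cells at day 28 and 25.7% at day 0. The adaptor Blnk was found in 78.9% of unmixed members and 16.3% of T cells at day 28, and in 73.2% of unmixed members and 11.8% of T cells at day 0. The lineage factor Pax5 was found in 48.7% of unmixed members and 3.25% of T cells at day 28, and in 40.2% of unmixed members and 8.46% of T cells at day 0. Cd24a (heat-stable antigen) was found in 100% of unmixed members at day 28 and 94.6% at day 0, but also in 98.9% of erythroid cells at day 28 and 99.2% at day 0, so its presence does not set the members apart. Il7r, the interleukin 7 receptor, which T cells also make, was found in 51 cells at day 28 and 52 at day 0, and in erythroid cells in 2.82% at day 28 and 5.56% at day 0. Rag1 was found in 8 cells at day 28 and 15 at day 0, and Rag2 in 10 at day 28 and 20 at day 0, with at most 2 or 3 UMIs in a cell, while in T cells both stayed at or below 1.63% in each library. Kit, a receptor of stem and pro-B cells, was found in 2 cells at day 28 and 0 at day 0. All 8 skeletal muscle genes of the marker list (Acta1, Myh4, Myh1, Ckm, Tnnt3, Pax7, Myod1 and Des) were at 0 in these members of both libraries. No cell had more than 1 UMI over the 8 fibroblast markers, and Pdgfra, Col1a1, Dcn, Lum and Dpt were at 0. S100a4, whose promoter drives the Cre, had 6 UMIs over the 76 day 28 members and 3 over the 112 day 0 members. Itgam (CD11b), which the sort excluded, had 7 UMIs over its 2 gene identifiers in all 92 day 28 members and 3 in all 122 day 0 members. Vegfa had 3 UMIs at day 28 and 1 at day 0 in the members without mixed cells, and Xist 0 in both.

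Markers of the neutrophil lineage were present at a low level in these members and differed between the libraries, with a median of 3.5 UMIs per cell at day 28 (highest 15) and 0.5 at day 0 (highest 3) over 12 genes. The part of these UMIs in the results below was not tested. Over 16 T cell genes no member exceeded 6 UMIs at day 28 or 5 at day 0, and Cd3d, Cd3e and Cd3g were at 0 by the rule. Between the libraries, 13 cell barcodes occurred in both, none of them in 2 members.

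Members made up 3.49% (interval 2.82% to 4.26%) of the cells at day 28 and 4.58% (3.81% to 5.44%) at day 0. The ratio was 0.763, with an interval from 0.575 to 1.01. Among cells with at least 2 Cd79a and Cd79b UMIs and no Cd3 UMI they were 92 of 507 (18.2%) at day 28 and 122 of 712 (17.1%) at day 0, a ratio of 1.06 (0.799 to 1.40). The deposited barcodes had at least 4175 UMIs at day 28 and 3001 at day 0, with medians over all cells of 12265 at day 28 and 4844 at day 0. With the rule applied after cells were thinned to equal depth, the ratio of the shares of all cells was 0.723 (0.556 to 0.938). That rule chose a different set of cells, 107 at day 28 and 137 at day 0. The share among cells with Cd79a and Cd79b UMIs was not tested at equal depth.

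The name small pre-B cell implies a cell that has left the cycle, and the RNA of most members was at odds with it. The 31 genes of the G2 and M phase list include the mitotic kinases Aurka, Aurkb and Plk1, the cyclins Ccna2, Ccnb1 and Ccnb2, the anaphase activator Cdc20 and the proliferation marker Mki67. To compare cells of unequal depth, each cell was thinned to 3200 UMIs, and 9 shallower day 0 members were left out. Unmixed members had 3 to 112 UMIs of these genes per cell at day 28, with a median of 46.5 (76 cells), against 0 to 119 with a median of 38 at day 0 (103 cells). Pro-B and large pre-B cells, taken as cells with at least 5 UMIs of Igll1, Vpreb1 and Dntt, had medians of 25 at day 28 (128 cells) and 14.5 at day 0 (72 cells). Ms4a1-positive B cells, with at least 2 UMIs of Ms4a1 and at most 1 of Vpreb3, had medians of 3 at day 28 (17 cells) and 2 at day 0 (142 cells). Members therefore had the highest G2 and M phase medians of these 3 populations in each library, and the cells are called here by Vpreb3 rather than as small pre-B cells.

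**Figure D2:**
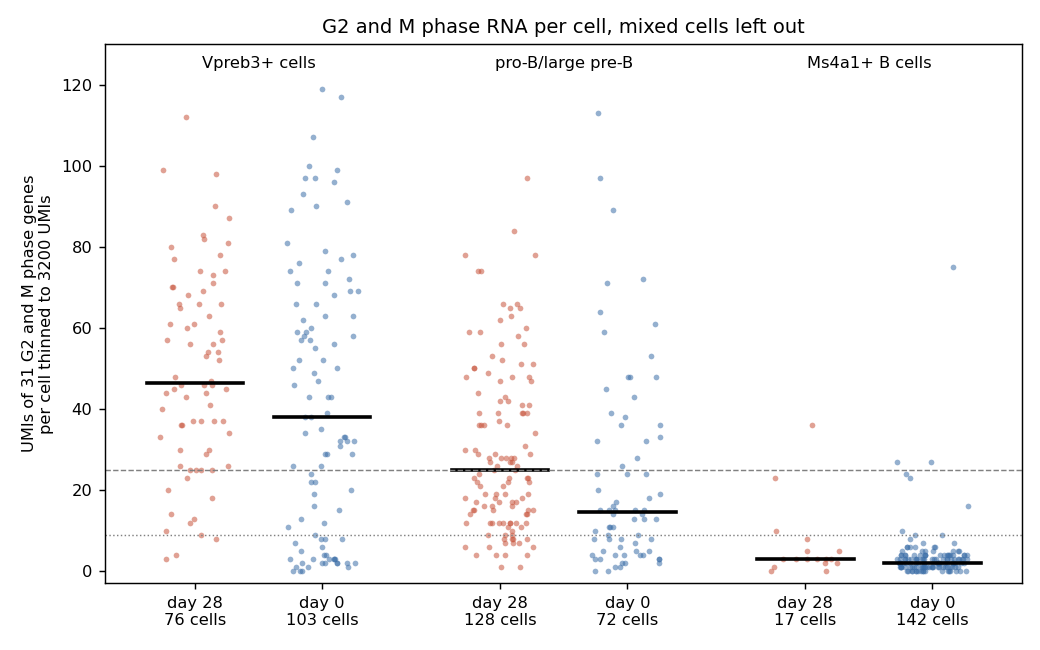
Each point is a cell thinned to 3200 UMIs, with its UMIs of 31 G2 and M phase genes on the y axis, for Vpreb3-positive, pro-B and large pre-B, and Ms4a1-positive B cells at day 28 and day 0. Black bars are medians (46.5, 25 and 3 in this order of populations at day 28, and 38, 14.5 and 2 at day 0), and the dashed and dotted lines mark 25 and 9 UMIs.

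Members differed widely in this RNA. At least 25 thinned UMIs were found in 65 of 76 members at day 28 (85.5%, interval 75.6% to 92.6%) and 65 of 103 at day 0 (63.1%, 53.0% to 72.4%). At most 9 were found in 4 members at day 28 (5.26%) and 28 at day 0 (27.2%), and 7 day 28 and 10 day 0 members lay between these limits. Among day 0 members at least as deep as the shallowest day 28 barcode, 48 of 61 (78.7%, 66.3% to 88.1%) were in the high class and 10 (16.4%) in the low one. The 2 limits were set after the values were seen, and 3 day 28 and 5 day 0 members lay at 8 to 11 UMIs.

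At day 0 the 2 classes differed in more than the cycle. The 65 high cells were set against the 28 low cells over 5082 genes with a mean of at least 20 CPM, and 993 genes (19.5%) were higher by 2-fold or more and 730 (14.4%) lower by as much, with a median log2 ratio of 0.09. The G2 and M phase genes defined the classes, so their 31 of 31 higher genes are no finding. Of 25 S phase genes, which copy the DNA or make its building blocks, 21 were at least 2-fold higher. Cyclin D3 (Ccnd3), the D cyclin that pre-B cells depend on for division, had 628 CPM in high and 172 CPM in low cells, a ratio of 3.65 (2.31 to 6.10). Ebf1 had 2185 CPM in high and 4027 CPM in low cells, and Cd79a had 1607 CPM in high and 3089 CPM in low cells. The rule gene Vpreb3 had 3388 CPM in high and 2453 CPM in low cells, Myl4 had 1114.5 CPM in high and 637 CPM in low cells, and Fcrla had 623 CPM in high and 611 CPM in low cells. In these sums none of the 5 markers differed by 2-fold, and their median log2 ratio was 0.47. The low cells were not alike, however. Low cells with 2, 3 and 4 Vpreb3 UMIs had, for example, 116, 126 and 117 Cd74 UMIs and no Myl4 or Cecr2 UMI. Others with 21 and 22 Vpreb3 UMIs had 2 and 7 of Myl4, 4 and 3 of Cecr2, and 57 and 3 of Cd74. The part of low cells with few marker UMIs in the class values here and below was not tested.

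All 10 MHC class II genes, with a median log2 ratio of -2.72, and 18 of 22 genes of immature and mature B cells, with a median of -3.33, were at least 2-fold lower in the high class at day 0. Cd74, the invariant chain that guides class II molecules, had 931 CPM in high and 13054 CPM in low cells, a ratio of 0.0713 (0.0629 to 0.0806). H2-Aa, a class II alpha chain, had 349.8 CPM in high and 2633 CPM in low cells. H2-Oa, which tunes peptide loading, had 1 UMI in the 65 high cells and 38 in the 28 low cells, and Ltb (lymphotoxin beta) had 2 UMIs in high and 40 in low cells. Btg1, an antiproliferative gene of resting lymphocytes, had 779.6 CPM in high and 3158 CPM in low cells. Ms4a1, which the rule held at 1 UMI or less, had 1 UMI in high and 16 in low cells. It is itself in the immature and mature B cell list, and H2-DMb2 is in both that list and the class II list. Of the pro-B list, Lef1, a factor of the Wnt pathway in pro-B cells, had 30 UMIs in high cells and 1 in low cells. Rag1 had 7 UMIs in high and 7 in low cells and Rag2 had 18 in high and 2 in low cells, too few for an order.

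Cell by cell, Cd74 separated the low class from most of the rest. In the 28 low day 0 members it had 277 to 35563 CPM, with a median of 12879.7, and 20 of them had at least 5000 CPM. In the 65 high day 0 members it had 0 to 7800 CPM, with a median of 363, and 3 reached 5000 CPM. At day 28 the 4 low members had 132 to 9365 CPM (median 2493) and the 65 high members 0 to 4277 CPM (median 193), with 23 of the high cells at 0 against 11 of 65 at day 0. The ranges of the classes overlapped in both libraries. Cells of other lineages held Cd74 UMIs too. T cells had 1075 CPM summed at day 28 and 3291 CPM at day 0, and 10 of 123 T cells at day 28 and 224 of 1099 at day 0 reached 5000 CPM. Monocyte lineage cells had 186 CPM at day 28 and 972 CPM at day 0, and erythroid cells had 67.1 CPM at day 28 and 399 CPM at day 0. These populations were not cleared of mixed cells, and no level of Cd74 in a single member is read here as expression.

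**Figure D3:**
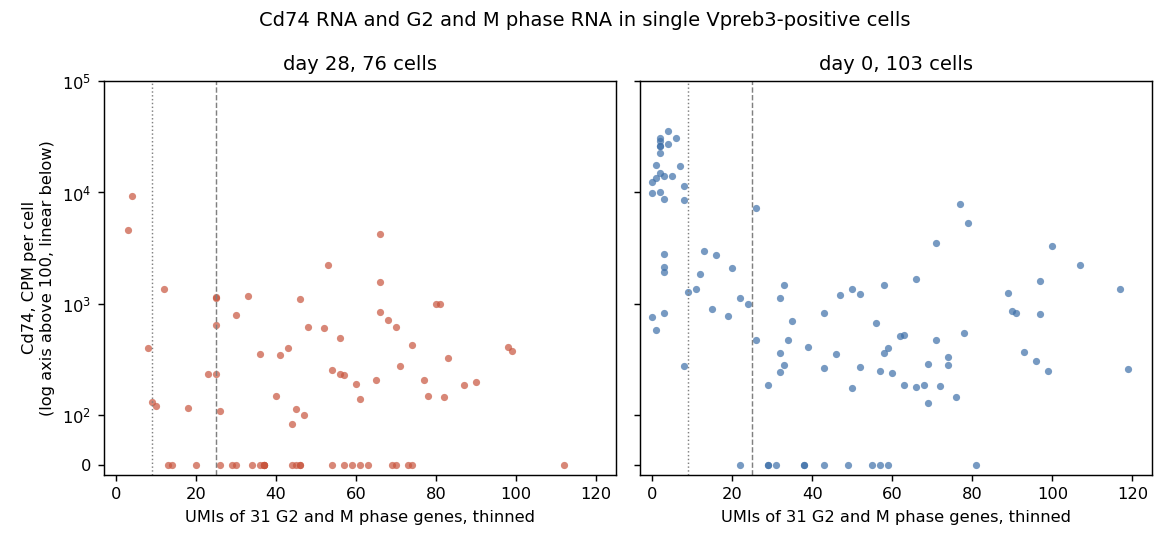
Each point is a Vpreb3-positive cell below the limits for mixed cells, with its thinned UMIs of 31 G2 and M phase genes on the x axis and its Cd74 level in CPM on the y axis (logarithmic above 100, linear below), 76 cells at day 28 left and 103 at day 0 right. The lines mark 9 and 25 UMIs, and 20 of the 28 day 0 cells left of the first line have at least 5000 CPM.

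Members were next set beside pro-B and large pre-B cells, called precursors here after the order of steps given above, which was not tested. Raw UMIs of Igll1, Vpreb1 and Dntt divide these 2 populations, so the depth of a cell bears on its side. The median depth was 10644 UMIs in precursors and 6361 in members at day 28, and 6083.5 in precursors and 4414 in members at day 0. Over all cells, 154 of 4867 genes (3.16%) were at least 2-fold higher in members in both libraries and 61 (1.25%) lower by 2-fold or more. With mixed cells left out on both sides, which leaves 76 members and 128 pro-B and large pre-B cells at day 28, and 112 members and 78 pro-B and large pre-B cells at day 0, 203 of 4797 genes (4.23%) were higher and 127 (2.65%) lower. The median log2 ratio of all genes was then 0.12 in each library. Values below are without mixed cells. The surrogate light-chain genes and Dntt were low in members because the rule asked for it.

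Most genes of class II presentation and some of B cell receptor signalling were higher in members than in precursors. Of 8 MHC class II genes 6 were at least 2-fold higher in both libraries, with median log2 ratios of 1.66 at day 28 and 2.27 at day 0. Cd74 had 546 CPM in members and 35.3 CPM in pro-B and large pre-B cells at day 28, a ratio of 15.5 (11.5 to 21.2), and 4162 CPM in members and 543 CPM in precursors at day 0, a ratio of 7.66 (6.84 to 8.61). H2-Aa had 269 CPM in members and 38.6 CPM in precursors at day 28, and 969.7 CPM in members and 147 CPM in precursors at day 0. The day 0 member values join unlike classes. Cd74 had 931 CPM in the 65 high and 13054 CPM in the 28 low day 0 members, and H2-Aa had 349.8 CPM in high and 2633 CPM in low ones. In the 65 high day 28 members Cd74 had 381 CPM and H2-Aa 245 CPM. T cells, not cleared of mixed cells, had 1075 CPM of Cd74 at day 28 and 3291 CPM at day 0. These were above the high members in both libraries, so the Cd74 level of members is not read here as a gain of expression. The part of the low class in the day 0 ratios was not tested. Of 18 receptor signalling genes 6 were higher and none lower: the Src-family kinases Blk and Lyn, the kinase Syk and the inhibitory receptors Cd72, Fcgr2b and Siglecg. The list's median log2 ratio was 0.51 at day 28 and 0.62 at day 0. Syk, which relays the pre-B receptor signal, had 127 CPM in members and 52.0 CPM in precursors at day 28, and 189 CPM in members and 64.9 CPM in precursors at day 0. Of 21 B lineage core genes 11 were higher and none lower. The 11 include the rule gene Cd79b, the marker Fcrla, and Cd74, Cd72 and Siglecg, which are already counted in the lists above.

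Among 28 B cell transcription factors 5 were at least 2-fold higher in members in both libraries (Id2, Irf4, Klf2, Pou2af1 and Spib) and 2 were lower (Erg and Lef1). Irf4, which promotes light-chain rearrangement, had 158 CPM in members and 38.0 CPM in pro-B and large pre-B cells at day 28 (ratio 4.15, 2.91 to 5.95), and 123 CPM in members and 36.4 CPM in precursors at day 0 (3.38, 2.07 to 5.71). Klf2, a factor of lymphocyte quiescence and migration, had 184 CPM in members and 39.97 CPM in precursors at day 28 (4.60, 3.29 to 6.49), and 389 CPM in members and 105 CPM in precursors at day 0 (3.72, 2.80 to 4.99). Pou2af1, the octamer coactivator, had 416 CPM in members and 201 CPM in precursors at day 28, and 506 CPM in members and 250.1 CPM in precursors at day 0. Lef1 had 48.5 CPM in members and 117 CPM in precursors at day 28, and 69.3 CPM in members and 179 CPM in precursors at day 0. Rag2 had 16 UMIs in members and 17 in pro-B and large pre-B cells at day 28, and 22 in members and 17 in precursors at day 0, and the interval of its day 0 ratio (0.798 to 3.16) spans 1. Rag1 ratios were 0.581 (0.250 to 1.20) at day 28 and 0.861 (0.434 to 1.67) at day 0, so no difference in Rag1 was detectable at this depth.

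The members' markers were also found in pro-B and large pre-B cells, at a lower summed level. Myl4 had 1129.8 CPM in members and 422 CPM in pro-B and large pre-B cells at day 28 (ratio 2.68, 2.38 to 3.002), and 954 CPM in members and 370.5 CPM in precursors at day 0 (2.58, 2.20 to 3.02). Fcrla had 406 CPM in members and 84.6 CPM in precursors at day 28 (4.80, 3.83 to 6.05), and 604 CPM in members and 138 CPM in precursors at day 0 (4.39, 3.45 to 5.63). Cecr2 and Akap12 were below 2-fold in 1 of the libraries each, at 1.95 (day 28) and 1.89 (day 0). Other genes among the 15 highest by the smaller ratio of the libraries were H2-Eb1, Hist1h1c, Blvrb, Cnp, Dnajc7, Fam129c, Rhoh, Ifi27l2a, Pafah1b3 and Jund. Cnp and Dnajc7 overlap on opposite strands, so their reads may not be separable.

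The cycle genes were not lower in members than in these dividing precursors. Of 31 G2 and M phase genes 3 were at least 2-fold higher in both libraries (Cdc20, Cks2 and Tacc3) and none lower, with median log2 ratios of 0.74 at day 28 and 1.01 at day 0. Of 27 S phase genes 1 was higher (Cdc45) and 1 lower (Ung), with median log2 ratios of 0.00 at day 28 and 0.07 at day 0. The D cyclins stood apart from each other. Ccnd2 (cyclin D2) had 6 UMIs in members at 12.1 CPM and 175 CPM in pro-B and large pre-B cells at day 28, a ratio of 0.0692 (0.0252 to 0.153). At day 0 it had 4 UMIs in members at 7.70 CPM and 188 CPM in precursors, a ratio of 0.0409 (0.0110 to 0.107). Ccnd3 had 661 CPM in members and 783 CPM in precursors at day 28, and 543 CPM in members and 863 CPM in precursors at day 0. Cdk6, the kinase partner of D cyclins, had 82.9 CPM in members and 255 CPM in precursors at day 28, and 32.7 CPM in members and 312 CPM in precursors at day 0. Of 17 genes of quiescence and cell cycle exit, 6 were higher in members (Btg1, Ccng2, Cdkn2d, Klf2, Tsc22d3 and Txnip) while Ccnd2, which that list also holds, was lower.

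Few genes of glycolysis and protein synthesis were 2-fold lower in members. Ldha (lactate dehydrogenase A) had 216 CPM in members and 634 CPM in pro-B and large pre-B cells at day 28 (ratio 0.341, 0.277 to 0.417), and 146 CPM in members and 712 CPM in precursors at day 0 (0.205, 0.159 to 0.262). Mif, a cytokine, had 249 CPM in members and 1003 CPM in precursors at day 28, and 262 CPM in members and 1238 CPM in precursors at day 0. These were the 2 of 13 hypoxia and glycolysis genes that were at least 2-fold lower in both libraries, and the list's median log2 ratios were -0.72 at day 28 and -1.05 at day 0. Of 26 cytosolic ribosomal protein genes 1 was at least 2-fold lower (Rps2), with medians of -0.27 at day 28 and -0.50 at day 0, and none of 32 oxidative phosphorylation genes was. Bfsp2, known from the lens cytoskeleton, had 64.7 CPM in members and 366 CPM in precursors at day 28, and 75.0 CPM in members and 361 CPM in precursors at day 0. The others of the 15 lowest were Impdh1, Igfbp4, Srm, Adgrg1, C1qbp, Tuba4a, Hspa9, Ifitm2, Fkbp1a and Crip1.

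**Figure D4:**
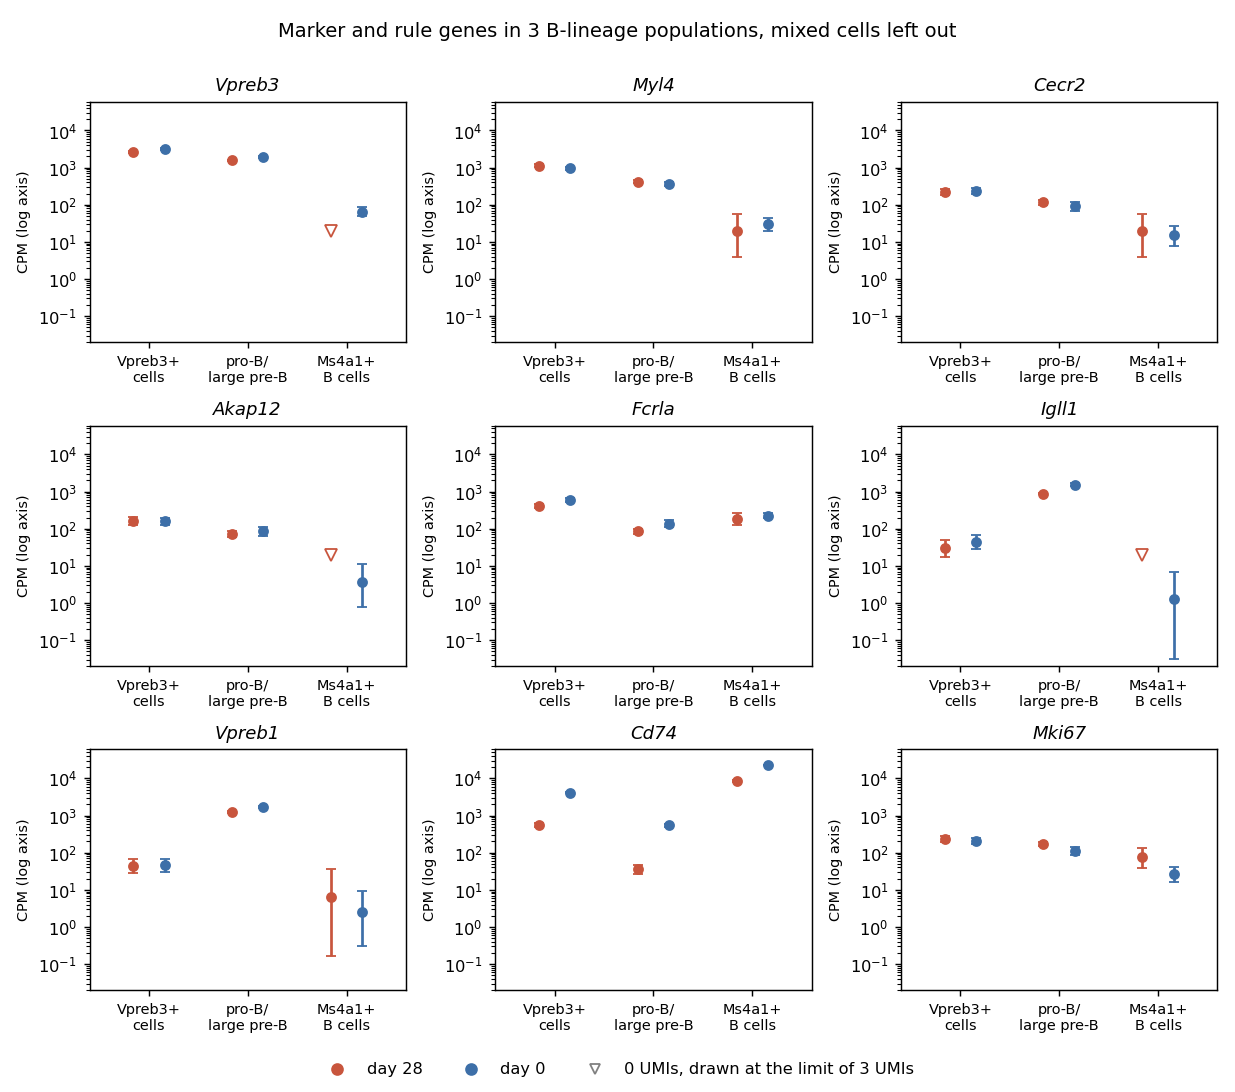
Summed level in CPM (logarithmic axis) of 5 marker genes, Igll1, Vpreb1, Cd74 and Mki67 in Vpreb3-positive, pro-B and large pre-B, and Ms4a1-positive B cells without mixed cells, day 28 left and day 0 right of each pair. Bars are 95% counting intervals, and open triangles stand at the limit of 3 UMIs for a gene with 0 UMIs. Vpreb3, Igll1 and Vpreb1 were used to choose cells, while Cd74 is 546 CPM at day 28 and 4162 CPM at day 0 in the Vpreb3-positive cells.

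Members were also set against Ms4a1-positive B cells, the more mature stage in the order given above, which was not tested. Here 519 of 4884 genes (10.6%) were at least 2-fold higher in members in both libraries and 148 (3.03%) lower by 2-fold or more. Without mixed cells 733 of 4733 (15.5%) were higher and 228 (4.82%) lower, with median log2 ratios of all genes of 0.33 at day 28 and 0.44 at day 0. The day 28 side then rests on 17 Ms4a1-positive cells with 155703 UMIs, against 160 at day 0. All 31 G2 and M phase genes were higher in members, as were 17 of 27 S phase genes and 8 of 8 replication-dependent histone genes tested. Top2a, the topoisomerase of dividing cells, had 823 CPM in members and 38.5 CPM in Ms4a1-positive cells at day 28, and 723 CPM in members and 37.6 CPM in Ms4a1-positive cells at day 0. Ccnd3 had 661 CPM in members and 57.8 CPM in Ms4a1-positive cells at day 28, and 543 CPM in members and 87.8 CPM in Ms4a1-positive cells at day 0. Of 6 recombination and end-joining genes 5 were higher (H2afx, Hmgb1, Hmgb2, Lig4 and Xrcc6). Xrcc6, the Ku70 subunit that joins broken DNA ends, had 204 CPM in members and 6.42 CPM in Ms4a1-positive cells at day 28, and 262 CPM in members and 12.5 CPM in Ms4a1-positive cells at day 0.

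Genes of early B cells set members apart from Ms4a1-positive cells. Il7r had 194 CPM in members and 0 UMIs in Ms4a1-positive cells at day 28, at least 10.1-fold higher with 3 UMIs over the group as the floor, and 156 CPM in members and 2.51 CPM in Ms4a1-positive cells at day 0. Sox4, a factor needed by pro-B cells, had 471 CPM in members and 6.42 CPM in Ms4a1-positive cells at day 28, and 656 CPM in members and 15.1 CPM in Ms4a1-positive cells at day 0. Tifa, an adaptor of NF-kB signalling, had 756 CPM in members and 19.3 CPM in Ms4a1-positive cells at day 28, and 1277.5 CPM in members and 35.1 CPM in Ms4a1-positive cells at day 0. Myl4 had 1129.8 CPM in members and 19.3 CPM in Ms4a1-positive cells at day 28 (ratio 58.6, 19.96 to 285), and 954 CPM in members and 30.1 CPM in Ms4a1-positive cells at day 0 (31.7, 21.1 to 49.96). Ebf1 was higher in members at both times, by 4.96-fold (3.87 to 6.47) at day 28 and 2.03-fold (1.87 to 2.20) at day 0. Pax5 had a ratio of 1.34 (0.767 to 2.47) at day 28 and 0.856 (0.610 to 1.19) at day 0, and both intervals span 1. The other genes among the 15 highest were E2f2, Cdk1, Myb, Cdc42ep3, Lgals9, Cdkn3, Nmral1, Bcl7a, Pbk and Hist3h2ba.

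Genes of the mature B cell were lower in members. Of 25 immature and mature B cell genes 20 were at least 2-fold lower in both libraries and none higher, and of 10 MHC class II genes 9 were lower. The 20 include Ms4a1, whose UMIs were used to choose both populations, so its difference is no finding. H2-DMb2 is counted in both lists. Cd74 had 546 CPM in members and 8651 CPM in Ms4a1-positive cells at day 28, a ratio of 0.0631 (0.0551 to 0.0719), and 4162 CPM in members and 23284 CPM in Ms4a1-positive cells at day 0, a ratio of 0.179 (0.171 to 0.187). Bank1, a scaffold of B cell receptor signalling, had 0 UMIs in members and 135 CPM in Ms4a1-positive cells at day 28, at least 22.2-fold lower, and 55.8 CPM in members and 346 CPM in Ms4a1-positive cells at day 0. Fcmr, the receptor for the Fc part of IgM, had 24.3 CPM in members and 359.7 CPM in Ms4a1-positive cells at day 28, and 123 CPM in members and 681 CPM in Ms4a1-positive cells at day 0. Apoe, best known for lipid transport, had 24.3 CPM in members and 764 CPM in Ms4a1-positive cells at day 28, and 42.3 CPM in members and 824 CPM in Ms4a1-positive cells at day 0. Cd74 and H2-Aa in members lay between the levels of the 2 comparison populations in both libraries. Ms4a1 itself was set by the rule, and H2-Eb1, H2-Oa, Ctsh, Gimap4, Gimap5, Ly6a, Ltb, Bcl2a1b, Cd52, Cybb and Man1a completed the 15 lowest.

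Between the libraries, members at day 28 had less class II and mature B cell RNA than at day 0, and the difference was smaller among the members rich in cycle RNA. Over all members, 120 of 4935 genes (2.43%) were at least 2-fold higher at day 28 and 356 (7.21%) lower by 2-fold or more, with a median log2 ratio of -0.18. Scaling by the median ratio, which sets that median to 0.00, gave 197 higher and 202 lower genes, so the split between the directions depends on the scaling. Without mixed cells 95 of 4792 (1.98%) were higher and 377 (7.87%) lower. Of these, 29 higher and 101 lower genes differed the same way by 2-fold in pro-B and large pre-B cells, 39 higher and 88 lower in T cells, 27 higher and 79 lower in erythroid cells and 20 higher and 58 lower in monocyte lineage cells. The share of all genes tested that differed by 2-fold in each of these populations is not given here, so no excess is read from these counts. These 4 populations were not cleared of mixed cells. Among the unmixed members with at least 25 G2 and M phase UMIs, 65 at day 28 and 65 at day 0, 126 of 4799 genes (2.63%) were higher and 381 (7.94%) lower.

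All 9 MHC class II genes tested were at least 2-fold lower in unmixed members at day 28, with a median log2 ratio of -1.85. In the high class 7 of the 9 passed the limit of 20 CPM, 1 of them was 2-fold lower, and their median was -0.54, against -1.85 for the same 7 in all unmixed members. Summed over the whole list, class II RNA was 1499.7 CPM at day 28 and 7393.8 CPM at day 0 in unmixed members, and 1237 CPM at day 28 and 2232 CPM at day 0 in the high class. Cd74 had 546 CPM at day 28 and 4162 CPM at day 0, a log2 ratio of -2.93, and in the high class 381 CPM at day 28 and 931 CPM at day 0, a log2 ratio of -1.29. H2-Aa had 269 CPM at day 28 and 969.7 CPM at day 0 (ratio 0.277, 0.227 to 0.336), and in the high class 245 CPM at day 28 and 349.8 CPM at day 0 (0.701, 0.532 to 0.922). H2-Eb1, a class II beta chain, had 139.5 CPM at day 28 and 594.5 CPM at day 0, and in the high class 94.6 CPM at day 28 and 184 CPM at day 0. The low class held 4 of 76 members at day 28 and 28 of 103 at day 0, and the share of the library difference that follows from this was not tested. Over all members, mixed ones included, 8 of 9 class II genes were 2-fold lower at day 28, with a median of -1.46. The limits for mixed cells took out all 9 day 28 members with exactly 2 Vpreb3 UMIs but only 3 of the 10 at day 0. Those 10 together had 15201 CPM of Cd74. The part of this uneven removal in the class II difference was not tested. The class II list was also lower at day 28 in other populations, with medians of -1.49 in pro-B and large pre-B cells, -1.46 in T cells, -2.57 in erythroid cells and -1.56 in monocyte lineage cells. These populations were not cleared of mixed cells. With 1 library per group, an effect of the surgery and a difference between the libraries cannot be told apart.

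Of 18 immature and mature B cell genes 13 were at least 2-fold lower at day 28 in unmixed members, with a median log2 ratio of -1.64. Other populations had medians of this list of -0.83 in pro-B and large pre-B cells, -1.34 in Ms4a1-positive cells, -1.55 in T cells, -1.30 in erythroid cells and -1.82 in monocyte lineage cells. Only 9 of the 18 passed 20 CPM in the high class, where 1 was 2-fold lower and the median was -0.46, against 5 lower and a median of -1.18 for the same 9 in all unmixed members. The genes that dropped out include Bank1, Ltb and Fcer2a. Summed over the whole list, the level was 1594.6 CPM at day 28 and 2643.5 CPM at day 0 in unmixed members, and 1407 CPM at day 28 and 1523.6 CPM at day 0 in the high class. Bank1 had 0 UMIs at day 28 and 29 at day 0, Ltb had 2 at day 28 and 50 at day 0, and Fcer2a (CD23), a gene of mature follicular B cells, had 0 at day 28 and 23 at day 0. Bank1 was found in 0% of unmixed members and 2.44% of T cells at day 28, and in 15.2% of unmixed members and 13.3% of T cells at day 0. Fcer2a was found in 0% of unmixed members and 2.44% of T cells at day 28, and in 14.3% of unmixed members and 11.1% of T cells at day 0, so the UMIs of both genes in members are not read as expression. Ltb was found in 1.32% of unmixed members, 5.09% of erythroid cells and 6.37% of monocyte lineage cells at day 28. At day 0 it was found in 18.8% of unmixed members, 18.2% of erythroid cells and 20.2% of monocyte lineage cells. The presence of Ltb therefore does not set members apart from those populations in either library. Cd52, a short surface glycoprotein of lymphocytes, had 123 UMIs at day 28 and 321 UMIs at day 0. Ly6d, an early marker of B cell commitment, had 402 CPM at day 28 and 1049 CPM at day 0, and in the high class 429 CPM at day 28 and 507 CPM at day 0. The list medians of the B lineage core (-0.53, and -0.27 in the high class), receptor signalling (-0.49 and -0.19) and B cell transcription factors (-0.31 and -0.15) followed in the same order. The marker list of the members had a median of -0.07 in unmixed members and -0.06 in the high class, close to 0 like the all-gene median of -0.15 without mixed cells.

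**Figure D5:**
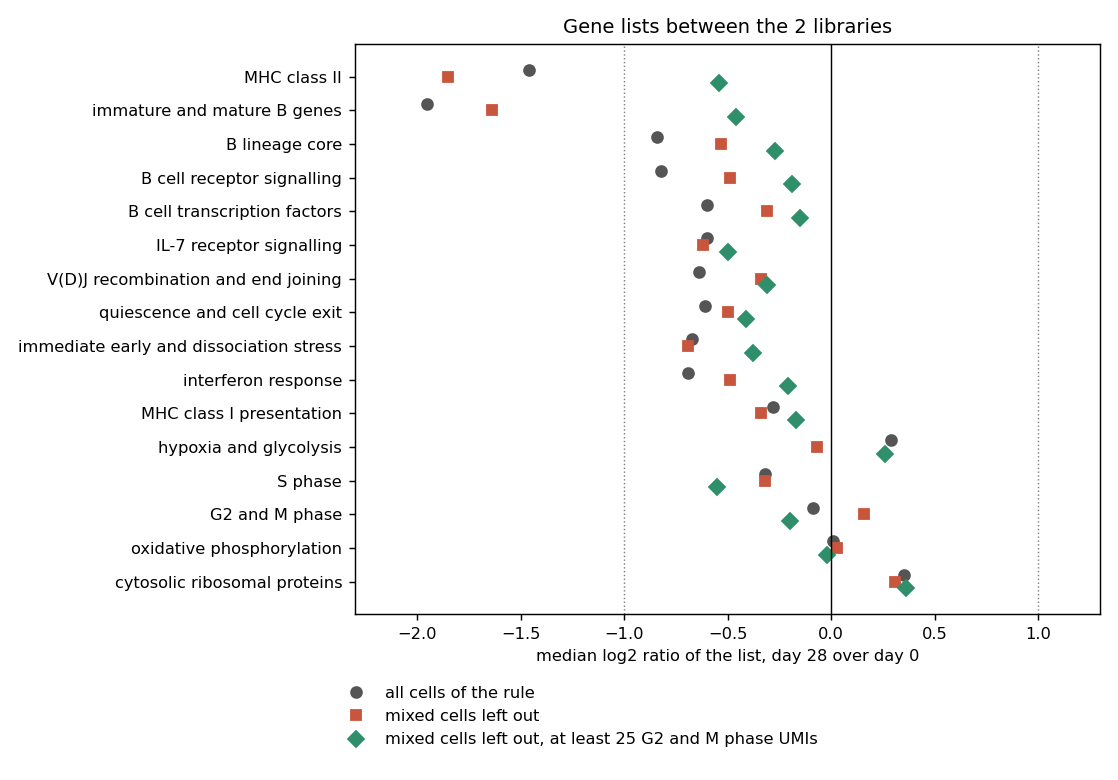
Median log2 ratio of each gene list on the x axis, day 28 over day 0, for all cells of the rule (circles), without mixed cells (squares) and without mixed cells and with at least 25 G2 and M phase UMIs (diamonds). Dotted lines mark 2-fold. MHC class II stands at -1.46, -1.85 and -0.54, and cytosolic ribosomal proteins at 0.35, 0.31 and 0.36.

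Some single genes differed within the high class as well. Hist1h2ap, a replication-dependent histone H2A gene, had 34.4 CPM at day 28 and 681 CPM at day 0 in unmixed members, a log2 ratio of -4.31, and -4.58 in the high class. Its log2 ratios in pro-B and large pre-B, T, erythroid and monocyte lineage cells lay between -2.89 and -5.50. Other histone genes did not follow it, and of 12 tested in unmixed members 4 were at least 2-fold higher at day 28 and 2 lower. Histone genes have near-identical copies, so reads may be split among them. Shisa5, an endoplasmic reticulum protein linked to apoptosis, had 10 UMIs at day 28 and 126 at day 0 (20.2 CPM at day 28 and 242 CPM at day 0), and in the high class 8 UMIs at day 28 and 22 at day 0. Serinc3, a membrane protein, had 477 CPM at day 28 and 1201 CPM at day 0, and in the high class 517 CPM at day 28 and 1334 CPM at day 0. Vgll4, Junb, H2-Ab1, H2-DMa and Cd53 were also among the 12 lowest without mixed cells.

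Cycle genes were close to the all-gene median between the libraries. The G2 and M phase list had a median log2 ratio of -0.09 over all members and 0.16 without mixed cells, so its sign depended on the mixed cells. In the high class it was -0.20, but these genes chose that class, so this value is no finding. The S phase list had -0.32 without mixed cells and -0.55 in the high class, where 5 of 26 genes were at least 2-fold lower at day 28 and none higher. Mcm7, a subunit of the replicative helicase, had 138 CPM at day 28 and 347 CPM at day 0 in the high class (ratio 0.399, 0.285 to 0.552), and 144 CPM at day 28 and 289 CPM at day 0 in all unmixed members. Mki67 had 234 CPM at day 28 and 206 CPM at day 0 (ratio 1.14, 0.868 to 1.50). Il7r had 194 CPM at day 28 and 156 CPM at day 0 (1.25, 0.917 to 1.70), Rag1 had 9 UMIs at day 28 and 17 at day 0 and Rag2 had 16 at day 28 and 22 at day 0, and the intervals of the 3 ratios span 1. The chemokine receptor Cxcr4, which holds B cell precursors in the marrow, had 58.6 CPM at day 28 and 108 CPM at day 0 (0.544, 0.335 to 0.867). Ptprc (CD45), carried by all blood cells but mature red cells and platelets, had 74.8 CPM at day 28 and 115 CPM at day 0 (0.648, 0.418 to 0.992).

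Fewer genes were higher at day 28. Bach2, a repressor that restrains B cell differentiation, had 228 CPM at day 28 and 133 CPM at day 0 in unmixed members (ratio 1.72, 1.26 to 2.36), and in the high class 262 CPM at day 28 and 133 CPM at day 0 (1.96, 1.38 to 2.85). In pro-B and large pre-B cells its log2 ratio was 0.12. Wdr89 had 726 CPM at day 28 and 356 CPM at day 0, a log2 ratio of 1.03, and lay between 0.38 and 0.89 in the 4 other populations. Rnaset2a and Rnaset2b, near-identical ribonuclease genes whose reads may be split between them, had log2 ratios of 1.63 and 1.83 in members and 1.31 to 1.58 in those populations. Tpt1 had 5000.2 CPM at day 28 and 2978 CPM at day 0, and Gapdh had 1124 CPM at day 28 and 650.3 CPM at day 0. The ribosomal protein list had a median log2 ratio of 0.31 without mixed cells, with none of 26 genes at 2-fold. The 12 highest without mixed cells also held Aurkaip1, Eef1b2, Hsp90ab1, Hspd1, Luc7l3, Med30, Ndufb3 and Stk4, all below 2-fold.

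Several genes that led the day 28 side over all members came from mixed cells. Slpi, a secreted protease inhibitor, had 4914 CPM at day 28 and 917 CPM at day 0 over all members, and 44.5 CPM at day 28 and 15.4 CPM at day 0 without mixed cells, and 49.9% of its UMIs were in a single cell. Camp, a granule antimicrobial peptide, had 216 CPM at day 28 and 3.22 CPM at day 0 over all members, and 8.08 CPM at day 28 and 3.85 CPM at day 0 without mixed cells. Lyz2 (lysozyme) had 128 CPM at day 28 and 578 CPM at day 0 over all members, a log2 ratio of -2.17, and turned to 0.98 without mixed cells. The granule gene Mpo had 58 UMIs at day 28 and 10 UMIs at day 0 in unmixed members (117 CPM at day 28 and 19.2 CPM at day 0). Prtn3 had 56 UMIs at day 28 and 13 at day 0, and Ctsg had 44 at day 28 and 4 at day 0. Mpo was also higher at day 28 in pro-B and large pre-B cells (164 CPM at day 28 and 32.2 CPM at day 0) and in all T cells (763 CPM at day 28 and 146 CPM at day 0).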

How the data were processed

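Both libraries were made from sorted cells on the 10x Genomics droplet system. Per the submitters' processing notes, reads were processed with Cell Ranger 2.1.1 and STAR on genome build mm10. Each deposited matrix holds whole-number UMI counts by gene and cell barcode without normalisation, per the file headers. The labels name 3' v1 chemistry, while barcodes have 16 bases. The files held 2653 barcodes at day 28 and 2668 at day 0, with 38785525 and 19574562 UMIs, of which 17 and 2 barcodes failed the filters. Of 27998 gene identifiers 27722 matched GENCODE M21 for coordinates, and 121 that share a symbol were kept apart.

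UMIs were summed over the cells of a population in each library and scaled to CPM, so a sum gives deep cells more weight. Genes with a mean of at least 20 CPM were compared, a 2-fold ratio was the call, and 39 gene lists were read. With 1 library per group no test between groups is possible, and no p-value is given. Intervals at 95% are Poisson for sums, Clopper-Pearson for shares and conditional binomial for ratios, and a gene at 0 was placed at 3 UMIs over the group. The interval and call code was tested on simulated data. Named genes were the rule genes, the markers, a set of study genes and the genes with the largest ratios among those of at least 100 CPM. Mitochondrial, ribosomal, haemoglobin and sex-linked genes were left out of that ranking. Scrublet was run in scanpy 1.11.5, and no cell was left out by it in the main values. Pro-B and large pre-B cells had at least 2 UMIs of Cd79a and Cd79b, at least 5 of Igll1, Vpreb1 and Dntt, at most 1 of Ms4a1 and no Cd3 UMI. T cells had at least 3 Cd3 UMIs, erythroid cells at least 5 UMIs over 4 erythroid genes (Klf1, Ermap, Alas2 and 1 not reported here), and monocyte lineage cells at least 5 of Csf1r, Ms4a6c, F13a1 and Cx3cr1. The members and lists were chosen with earlier results of these data known. The mixed-cell rule, the G2 and M phase classes and the 12 or 15 genes ranked without mixed cells were added after the values were seen.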

Additional observations from a re-analysis of the deposited data

How the results depend on the processing

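No paired analysis was possible because each group holds 1 library. The share ratio of members, 0.763, lay between 0.686 and 0.815 in 8 of the 9 alternatives in which it was computed. The other, without members with 3 or more UMIs of other lineages, kept 1 cell at day 28 and 9 at day 0 and gave 0.112. Leaving out members with 4 or more G2 and M phase UMIs kept 1 cell at day 28 and 20 at day 0 and was not run further. Its interval stayed below 1 without mixed cells (0.506 to 0.927), with a mitochondrial limit of 5% (0.561 to 0.988) and with the rule applied after thinning (0.556 to 0.938). Counts at day 28 against day 0 (120 higher, 356 lower) were 63 higher with the rule after thinning, 209 higher and 543 lower with no Igll1, Vpreb1 or Dntt UMI, 197 and 202 with median-ratio scaling, 43 and 121 at 50 CPM, and 947 and 1399 with no filter. Against pro-B and large pre-B cells (154 higher, 61 lower) they were 80 and 23 at 50 CPM and 460 and 217 with no filter. The lower count there was 111 with the rule after thinning, 101 with at least 3 Vpreb3 UMIs, 122 with thinned counts, 93 with the mean of cell CPM and 127 without mixed cells. Against Ms4a1-positive B cells (519 higher, 148 lower) they were 274 and 69 at 50 CPM and 796 and 453 with no filter, and 228 lower without mixed cells. The median of the neutrophil lineage list, 1.70 over all members, was -0.30 with at least 3 Vpreb3 UMIs. The causes of these changes were not tested. Over all settings, 331 list medians stayed within the interval of the main median over the list's genes, 46 moved outside it and 1 turned. Settings left with under 20 cells in a library gave no gene counts. The alternatives without mixed cells, with high G2 and M phase RNA and with marker UMIs were chosen after seeing the data. Sums over 76 unmixed members at day 28 and 112 at day 0 limit genes below about 20 CPM to a few UMIs.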
